A study of Mus musculus with 9 samples.

Results

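A set of 10 genes of glucose uptake and glycolysis was followed by their symbols in 9 mouse libraries: the glucose transporter Slc2a1, the hexokinases Hk1 and Hk2, the phosphofructokinases Pfkl and Pfkp, the aldolase Aldoa, the phosphoglycerate kinase Pgk1, the enolase Eno1, the pyruvate kinase Pkm and the lactate dehydrogenase Ldha. All 10 were found among the 54838 genes of the count files, and all 10 passed the filter on low counts in both comparisons made here. Aldoa stood under 2 gene IDs, and the ID with more counts was used. RNA came from B16F10, an established melanoma line of C57BL/6 mice, and from CD8+ T cells which an isolation kit enriched from spleens of C57BL/6 adults. Cells stood in medium for 5 h with no addition or with 600 µM hypochlorous acid (HOCl), the oxidant made by neutrophil myeloperoxidase. There were 3 libraries of untreated B16F10, 3 of B16F10 with HOCl, 2 of untreated T cells and 1 of T cells with HOCl. The labels do not say whether replicates were separate cultures or mice, so p-values speak of library-to-library spread alone, and that spread could be technical.

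Glycolysis turns glucose into pyruvate in the cytosol and yields ATP without oxygen. Glucose enters through a facilitative transporter, hexokinase traps it as glucose 6-phosphate, phosphofructokinase commits it to the pathway, and lactate dehydrogenase reduces the pyruvate to lactate so that NAD+ is regained. Most steps are served by several isoenzymes from separate genes, and tumour cells and activated T cells are known for high glucose uptake and lactate release, while resting T cells rely more on mitochondrial respiration.

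The B16F10 libraries held 45895352 to 61347337 gene counts, the untreated T cell libraries 49934172 and 52087754, and the T cell HOCl library 12847418. Levels are given as CPM, a gene's count scaled by the library's total. The 7 melanoma markers (Pmel, Tyr, Tyrp1, Dct, Mlana, Sox10 and Mitf) summed to between 24046 and 25084 CPM in B16F10, 101 and 25.6 CPM in T cells without HOCl and 6712 CPM in those with it. The 7 CD8 T cell markers (Cd3d, Cd3e, Cd3g, Cd8a, Cd8b1, Cd2 and Lck) summed to 2632 and 2574 CPM in T cells without HOCl, 517 CPM in those with it, 24.4 CPM in B16F10 HOCl replicate 3 and 4.25 to 5.92 CPM in the other B16F10 libraries. Of these T cell markers 1, Cd2, was at 0 in untreated replicate 3 and HOCl replicate 1 of B16F10, and no melanoma marker was at 0 anywhere. Markers of B, myeloid, erythroid, platelet and fibroblast cells summed to at most 26.2 CPM per list in the untreated T cells. The library labelled T cell HOCl, with mitochondrial transcripts at 37.4% of its counts against at most 2.11% elsewhere, went against its label in these markers. It entered no test and is given by its values. In bulk RNA, fewer cells of a type and less RNA per cell cannot be told apart.

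The promoters of 4 members are shown because they set the member that fell most, Hk1, beside its isoenzyme Hk2, and beside 2 other members that fell, Eno1 and Ldha. Each is the 250 bases before a RefSeq start site on GRCm38.p6, read 5′ to 3′ on the gene's strand, and none of these bases lies in an annotated exon of its gene. The windows are chr10:62379909-62380158 (minus strand) for Hk1, chr6:82774455-82774704 (minus) for Hk2, chr4:150236458-150236707 (plus) for Eno1 and chr7:46845554-46845803 (plus) for Ldha. Capitals mark ACGTG on either strand, a form of the core letters bound by the hypoxia-inducible factors, which are known to drive glycolytic genes. The other form, GCGTG, was neither searched nor marked, so a window without capitals can still hold it. ACGTG overlaps the E-box CACGTG, the letters bound by Myc.
Hk1: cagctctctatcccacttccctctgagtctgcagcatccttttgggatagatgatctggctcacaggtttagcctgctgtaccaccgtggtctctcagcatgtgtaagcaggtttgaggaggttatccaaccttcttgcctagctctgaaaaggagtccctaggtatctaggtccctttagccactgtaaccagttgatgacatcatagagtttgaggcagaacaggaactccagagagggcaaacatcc
Hk2: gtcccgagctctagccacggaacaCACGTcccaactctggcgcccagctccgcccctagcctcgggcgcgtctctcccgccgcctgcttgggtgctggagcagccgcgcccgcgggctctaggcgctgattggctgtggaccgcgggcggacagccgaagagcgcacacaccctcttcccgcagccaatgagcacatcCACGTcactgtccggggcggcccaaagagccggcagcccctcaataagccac
Eno1: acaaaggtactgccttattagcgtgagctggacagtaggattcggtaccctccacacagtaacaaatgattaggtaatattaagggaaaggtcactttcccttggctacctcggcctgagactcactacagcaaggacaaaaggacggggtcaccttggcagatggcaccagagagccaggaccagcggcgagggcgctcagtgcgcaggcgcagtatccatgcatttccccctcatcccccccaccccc
Ldha: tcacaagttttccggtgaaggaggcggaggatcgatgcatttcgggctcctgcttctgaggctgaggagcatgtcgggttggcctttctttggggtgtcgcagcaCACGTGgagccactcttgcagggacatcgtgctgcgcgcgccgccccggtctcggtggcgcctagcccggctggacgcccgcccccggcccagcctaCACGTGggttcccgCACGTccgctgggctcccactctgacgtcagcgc

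The Ldha window held 3 separate ACGTG runs, 2 of them the E-box CACGTG, and the Hk2 window held 2 without an E-box. The Hk1 and Eno1 windows held neither ACGTG nor CACGTG. RefSeq has 2 windows for Hk1, 3 for Eno1 and 2 for Ldha, of which 1 per gene was read. Which start these cells use was not tested. A window was found for all 10 members, and 6 of the 10 windows held ACGTG and 1 held CACGTG. Of all 32851 RefSeq windows of this length, 16.6% held ACGTG and 6.02% held CACGTG. Those windows were not matched to the members for GC content, which ran from 49.6% (Hk1) to 69.6% (Hk2) among the members. Among the other genes of the pathway 61 had a window, of which 21 held ACGTG and 10 CACGTG. Of the 4 members that fell with HOCl, described next, Ldha had ACGTG in the window read and Hk1, Pfkl and Eno1 did not. A match is a description of letters only.

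In B16F10 cells given HOCl, Hk1, Ldha, Pfkl and Eno1 fell by small amounts, while the other isoenzymes Hk2 and Pfkp had fitted ratios of 1.02 each and did not pass. The 4 falls were 1.29-fold for Hk1, 1.27-fold for Ldha, 1.25-fold for Pfkl and 1.18-fold for Eno1. In the quasi-likelihood F test of edgeR, adjusted over 16082 genes after Benjamini and Hochberg, 4 of the 10 members were lower and 0 higher at an adjusted p below 0.05. At an unadjusted p below 0.05, 5 were lower and 1 higher in the same test, and DESeq2 called 5 lower and 0 higher. Of all genes tested, 13.5% were called lower and 14.7% higher, 28.3% in all. The members' median log2 fold change was -0.12, against -0.01 over all genes tested. The members' part of the library was 1.05, 0.932 and 0.952% of counts in the 3 untreated libraries and 0.932, 0.897 and 0.859% in the 3 HOCl libraries, and these ranges meet at 0.932%.

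**Figure D1:**
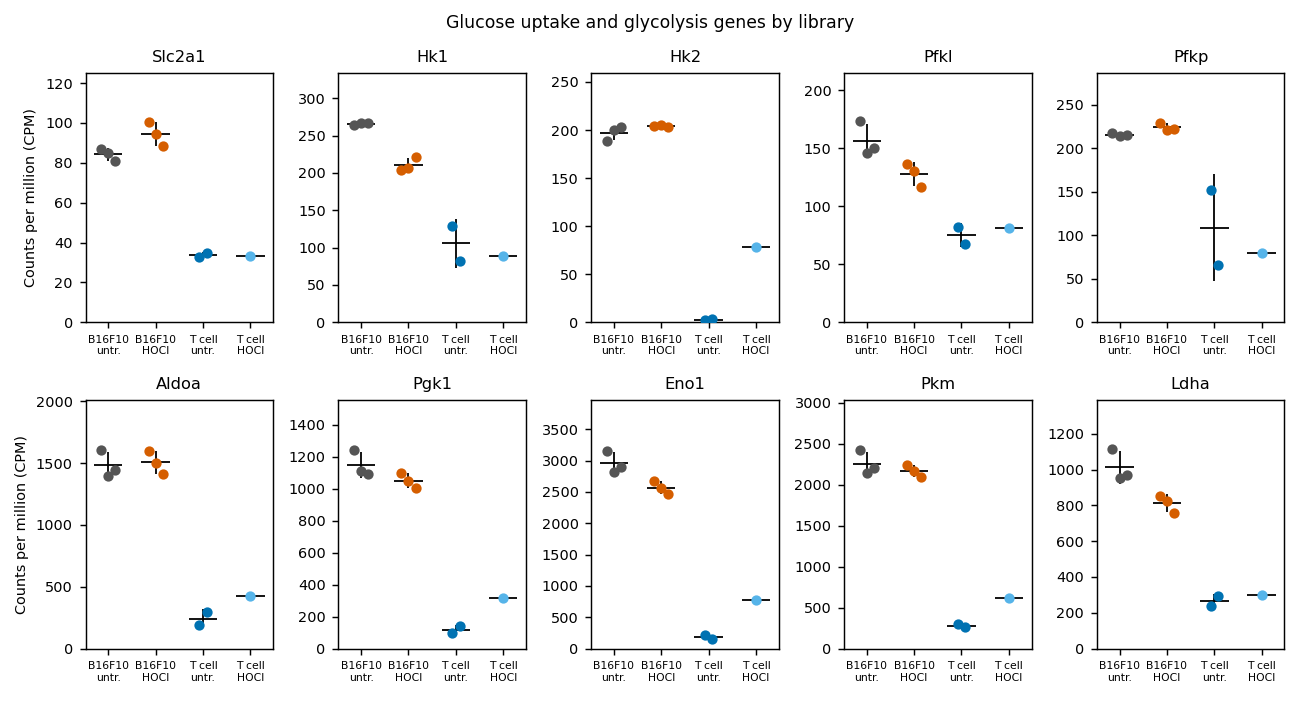
Level in CPM (vertical axis, from 0) of the 10 members in each of the 9 libraries, by group (untr., untreated). Points are libraries, bars the mean and its SD where a group has more than 1 library. The 3 HOCl points of Hk1 lie between 204 and 221 CPM, below the 3 untreated points at 264 to 268 CPM, and Hk2 is near 0 in untreated T cells.

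Slc2a1 (ENSMUSG00000028645, chromosome 4, 119108711 to 119137983, GRCm38) encodes GLUT1, the basal glucose transporter of most cells. Its level was 87.1, 85.0 and 80.7 CPM in the untreated libraries and 101, 94.3 and 88.3 CPM with HOCl. The HOCl libraries all lay above the untreated ones, a separation upward that 25.2% of all genes tested showed. The log2 fold change was 0.14 ± 0.06 (SE, 3 libraries per group) and did not pass, at an edgeR adjusted p of 0.107. Without untreated replicate 1 it passed as higher.

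Hexokinase 1 and hexokinase 2 both bind the mitochondrial outer membrane, Hk1 being the form of most tissues and Hk2 that of muscle, fat and many tumours. Hk1 (ENSMUSG00000037012, chromosome 10, 62268855 to 62379908) stood at 264, 268 and 267 CPM in untreated cells and at 204, 206 and 221 CPM with HOCl. The 3 untreated libraries lay close together, and all the HOCl libraries lay below them. The log2 fold change was -0.37 ± 0.05 (SE, 95% interval -0.47 to -0.27) at an edgeR adjusted p of 0.000154. Hk2 (ENSMUSG00000000628, chromosome 6, 82725025 to 82774454) stood at 188, 199.9 and 203 CPM untreated and 204, 206 and 203 CPM with HOCl. Its groups were next to each other without overlap in CPM, and its log2 fold change of 0.03 had a 95% interval of -0.07 to 0.13.

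Counted per kb of exon, Hk2 made up 50.5, 51.6 and 52.0% of the Hk1, Hk2 and Hk3 sum in untreated B16F10 and 58.8, 58.8 and 56.8% with HOCl. The share of Hk2 was thus 6.74 percentage points higher with HOCl, and the groups did not overlap. The exact permutation test (two-sided) gave p = 0.1, the smallest value that 3 against 3 libraries can give, and 0.255 after adjustment over the 14 share comparisons made. Hk3, a hexokinase of blood cells, had 0 counts in all 6 B16F10 libraries, where 3 counts would be 0.0489 to 0.0654 CPM.

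Phosphofructokinase is a tetramer that the liver, platelet and muscle subunits can build in mixtures. Pfkl, the liver subunit (ENSMUSG00000020277, chromosome 10, 77986947 to 78010083), stood at 173, 146 and 149.8 CPM untreated and at 137, 130.3 and 116 CPM with HOCl. The groups did not overlap, as 18.4% of all genes tested also showed in the downward direction, although untreated replicate 1 lay well above the other untreated libraries. Pfkl had a log2 fold change of -0.32 ± 0.08 at an edgeR adjusted p of 0.00845. Pfkp, the platelet subunit (ENSMUSG00000021196, chromosome 13, 6579768 to 6648777), stood at 218, 214 and 215 CPM untreated and 229.5, 221 and 222 CPM with HOCl. Its log2 fold change was 0.03 with a 95% interval of -0.07 to 0.12, and part of its exons, 5.58% of the bases, is shared with Pitrm1 on the other strand.

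The muscle subunit gene Pfkm, which is no member, fell beside Pfkl, from a mean of 70.2 ± 1.62 CPM to 55.2 ± 0.657 CPM (SD over 3 libraries each), at an edgeR adjusted p of 0.00025. Per kb of exon, Pfkp was 25.6, 27.4 and 26.9% of the 3 subunits in untreated cells and 31.6, 31.3 and 32.9% with HOCl. That difference of 5.33 percentage points had the smallest exact permutation p, 0.1, and 0.255 adjusted.

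The 5 members from Aldoa to Ldha were the most abundant, and of these Eno1 and Ldha passed the test. Aldoa (ENSMUSG00000030695, chromosome 7, 126795234 to 126800751) encodes the aldolase that splits fructose 1,6-bisphosphate. It stood at 1606, 1393 and 1443 CPM untreated and 1597, 1504 and 1416 CPM with HOCl. Those ranges overlapped, the log2 fold change was -0.0036 with a 95% interval of -0.14 to 0.13, and its sign turned with library totals in place of TMM scaling.

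Pgk1 (ENSMUSG00000062070, chromosome X, 106187100 to 106203699), whose product makes the first ATP of the pathway, stood at 1239, 1107 and 1092 CPM untreated and 1094, 1050.0 and 1004 CPM with HOCl. The highest HOCl library lay just above the lowest untreated one. Pgk1 had a log2 fold change of -0.15 ± 0.06 at an edgeR adjusted p of 0.0656, and it passed in DESeq2 and with no filter on low counts. In the authors' deposited table Pgk1 had -0.15 and an adjusted p of 0.0407.

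Eno1 (ENSMUSG00000063524, chromosome 4, 150236721 to 150248879) encodes alpha-enolase, which makes phosphoenolpyruvate. It had the highest count of the members, 3161, 2816 and 2904 CPM untreated and 2668, 2569 and 2466 CPM with HOCl. All the HOCl libraries lay below the untreated ones. Eno1 had a log2 fold change of -0.23 ± 0.05 at an edgeR adjusted p of 0.00729.

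The gamma-enolase gene Eno2, known from neurons, went the other way. It rose from 50.7, 50.5 and 49.3 CPM to 76.7, 79.0 and 74.8 CPM, with a log2 fold change of 0.59 ± 0.05 and an edgeR adjusted p of 1.27e-05. Eno1 was 96.4 ± 0.123% of enolase transcripts per kb in untreated cells and 94.98 ± 0.186% with HOCl (mean ± SD, n = 3 per group; exact permutation p = 0.1, 0.255 adjusted). Eno2 rose 1.503-fold and was 3.13 to 3.34% of the family with HOCl.

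Pkm (ENSMUSG00000032294, chromosome 9, 59656368 to 59679375) encodes both splice forms of muscle pyruvate kinase, M1 and M2, which gene counts do not separate. It stood at 2423, 2137 and 2200 CPM untreated and 2234, 2171 and 2096 CPM with HOCl. The groups overlapped, with a log2 fold change of -0.08 and a 95% interval of -0.20 to 0.04. Pklr, the liver and red cell pyruvate kinase, had no count in 4 of the 6 B16F10 libraries.

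Ldha (ENSMUSG00000063229, chromosome 7, 46841475 to 46855627) encodes the A subunit of lactate dehydrogenase, which favours lactate. It stood at 1115, 950.4 and 969 CPM untreated and at 855, 822 and 757 CPM with HOCl. Every HOCl library lay below every untreated one. The log2 fold change was -0.35 ± 0.07 (95% interval -0.49 to -0.20) at an edgeR adjusted p of 0.00257. Ldhb, which encodes the heart-type subunit, had 241 ± 25.1 CPM untreated and 212 ± 6.94 CPM with HOCl (mean ± SD, n = 3 per group), a log2 fold change of -0.21 ± 0.07 and an edgeR adjusted p of 0.0366. Its call ended with library totals in place of TMM and without untreated replicate 3 or any 1 HOCl replicate. Per kb, Ldha was 66.6 ± 0.376% of the pair untreated and 64.4 ± 0.671% with HOCl (exact permutation p = 0.1, 0.255 adjusted).

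The calls of Hk1, Pfkl, Eno1 and Ldha held without each of the 6 B16F10 libraries in turn, HOCl replicate 3 with its T cell markers included. All 4 ended with all 9 libraries in 1 fit, where edgeR called 0 members at an adjusted p below 0.05 and 3 were lower at an unadjusted p below 0.05, and against a 1.5-fold change, where glmTreat called 0 and 0 had an unadjusted p below 0.05.

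**Figure D2:**
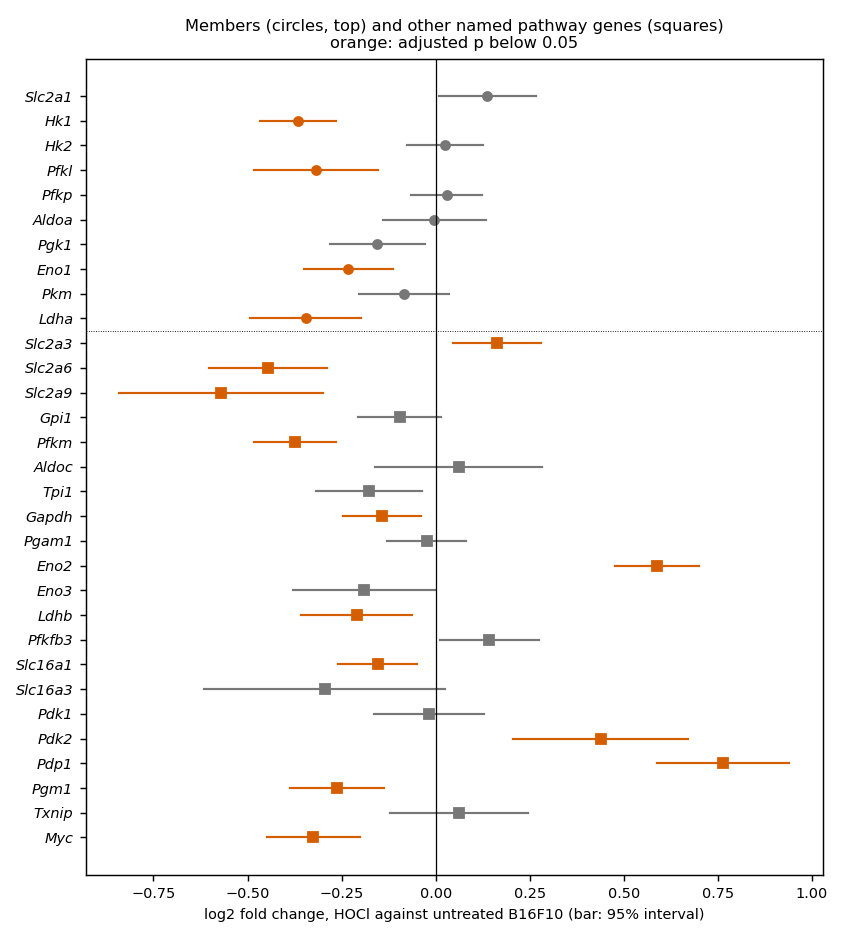
Log2 fold change of HOCl against untreated B16F10 (horizontal axis) with its 95% interval, for the 10 members (circles) and the other named genes of the pathway that were tested (squares). Orange marks an adjusted p below 0.05; the 4 orange members lie between -0.37 and -0.23, and Eno2 and Pdp1 lie to the right at 0.59 and 0.76.

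Of 69 other genes of the pathway, 54 were tested in B16F10, of which 8 rose and 10 fell (edgeR as before), with a median log2 fold change of -0.05. Their called share in each direction can be read against the 14.7% higher and 13.5% lower among all genes. With library totals in place of TMM, 8 rose and 6 fell.

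Among the glucose transporters, 1 rose and 2 fell of 7 tested. Slc2a6, a lysosomal transporter, fell from 28.7 ± 2.17 to 21.5 ± 0.612 CPM, and Slc2a9, known for urate transport, from 6.69 ± 0.304 to 4.60 ± 0.685 CPM (SD over 3 libraries each). Slc2a3, which encodes the high-affinity transporter GLUT3, rose 1.12-fold, from 56.3 ± 1.42 to 64.3 ± 2.89 CPM, at an edgeR adjusted p of 0.0394. Leaving out any library but untreated replicate 1, or using no filter on low counts, ended that call. Slc2a1 was 75.5 ± 1.10% of the Slc2a1 and Slc2a3 sum per kb untreated and 75.2 ± 1.84% with HOCl, ranges that overlapped (exact permutation p = 0.8, 0.862 adjusted).

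Of 12 tested genes of the other steps, 1 rose (Eno2) and 3 fell (Pfkm, Gapdh and Ldhb). Gapdh, whose product oxidises glyceraldehyde 3-phosphate and carries a reactive cysteine, stood at 4247, 4091 and 4055 CPM untreated and 3971, 3817 and 3651 CPM with HOCl. Its groups did not overlap, and its log2 fold change of -0.14 ± 0.05 came at an edgeR adjusted p of 0.0411. Library totals in place of TMM, or leaving out any library but untreated replicate 1, ended the Gapdh call. Gpi1, Tpi1, Pgam1, Aldoc and Eno3 did not pass, with log2 fold changes of -0.10, -0.18, -0.02, 0.06 and -0.19. Tpi1, at an edgeR adjusted p of 0.0578, passed as lower in DESeq2, with no filter, with the replicate block and without untreated replicate 2. In the authors' deposited table Tpi1 had -0.17 and an adjusted p of 0.0286.

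Genes around pyruvate gave 3 that rose and 1 that fell of 8 tested for pyruvate dehydrogenase, its kinases and its phosphatases. Pdp1, a phosphatase that switches the complex on, rose 1.70-fold, from 8.60 ± 0.458 to 14.9 ± 0.187 CPM, at an edgeR adjusted p of 5.03e-05, the largest change among the named pathway genes here. Pdk2, a kinase that switches it off, rose from 6.26 ± 0.491 to 8.63 ± 0.760 CPM, and its call ended without HOCl replicate 1. Pdk1, a kinase under hypoxia control, was at 27.7 ± 1.92 and 27.8 ± 0.387 CPM. Of 6 genes of lactate and pyruvate transport 1 fell, the monocarboxylate carrier Slc16a1, from 100.5 ± 1.96 to 92.0 ± 2.19 CPM. That call ended under the settings that ended that of Gapdh, and also with no filter on low counts. The lactate exporter gene Slc16a3 had a log2 fold change of -0.29 ± 0.15 and did not pass.

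Regulators of phosphofructokinase had 1 riser of 5 tested: Tigar, whose product lowers fructose 2,6-bisphosphate, was chosen for mention after its values were seen and rose 1.19-fold. Pfkfb3, which makes that activator, had a log2 fold change of 0.14 ± 0.06 and did not pass. In gluconeogenesis and glycogen, 1 rose and 2 fell of 9, among them the phosphoglucomutase gene Pgm1, from 166 ± 11.0 to 141 ± 6.06 CPM. Of 6 control genes 1 rose and 1 fell, the latter being Myc, a factor that drives glycolytic genes, from 60.2, 59.6 and 60.1 CPM to 47.5, 46.7 and 52.2 CPM at an edgeR adjusted p of 0.00133. Txnip, which restrains glucose uptake, was at 60.7 ± 3.01 and 64.5 ± 8.77 CPM.

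In the second comparison, 9 of the 10 members were higher in untreated B16F10 than in untreated T cells and 0 lower, by edgeR over 18352 genes, of which 35.8% were higher and 35.4% lower, 71.1% in all. At an unadjusted p below 0.05 the members' counts were the same 9 and 0, and DESeq2 gave 10 and 0. The members' median log2 fold change was 2.01, against -0.02 over all genes tested. With library totals in place of TMM all genes had a median of 0.22 and the members 2.27. This comparison shares its untreated B16F10 libraries with the first. Isolation, culture and cell type differ together between these groups and cannot be told apart.

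Hk2 differed most of the members. It stood at 188, 199.9 and 203 CPM in B16F10 and at 2.08 and 2.92 CPM in T cells, a log2 fold change of 6.04 ± 0.27 (65.8-fold) at an edgeR adjusted p of 1.75e-05. The melanoma markers above were at 101 and 25.6 CPM in those T cell libraries, the lower Hk2 value being in the library with more of them; their part in the Hk2 level was not tested. Hk1 stood at 129 and 82.6 CPM in T cells against 264 to 268 CPM in B16F10, a difference of 1.10 ± 0.19 on the log2 scale. Per kb, Hk2 was 2.19 and 4.74% of the 3 hexokinases in T cells and Hk1 was 94.9 and 93.8%, whereas B16F10 had nearly equal parts of each. Those equal parts depend on the gene length used. The union of exons has 8532 bases for Hk1 and its longest transcript 4278, against 5969 and 5513 for Hk2. With the longest transcript, the difference in the Hk2 share between the cell types went from 47.9 to 34.5 percentage points. Hk3 was present in T cells at 1.68 and 0.538 CPM. Their mean of 1.11 CPM was at least 18.8-fold above B16F10, against the mean floor of 3 counts per library. For the lower T cell library alone the bound is smaller.

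The differences of the other members ran down from Eno1 (14.0-fold higher in B16F10), Pgk1 (8.09-fold), Pkm (6.83-fold) and Aldoa (5.09-fold) to Ldha (3.20-fold), Slc2a1 (2.09-fold) and Pfkl (1.76-fold). Eno1 stood at 210.3 and 148 CPM in T cells and Ldha at 237 and 293 CPM. For all 10 members both T cell libraries lay below all untreated B16F10 libraries, a separation that 46.0% of all genes tested showed in this direction. Pkm was at 297 and 261 CPM, Aldoa at 186 and 298 CPM and Pgk1 at 96.1 and 140.5 CPM. The 2 T cell libraries did not keep 1 order over genes: replicate 1 was the higher for Eno1 and Pkm and the lower for Ldha, Aldoa and Pgk1. Slc2a1 stood at 32.7 and 35.0 CPM and Pfkl at 82.3 and 67.8 CPM.

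Pfkp was the member that did not pass. Its T cell libraries were far apart, at 152 and 65.3 CPM, with B16F10 at 214 to 218 CPM above both. The log2 fold change was 0.77 ± 0.32 with a 95% interval of -0.02 to 1.55 and an edgeR adjusted p of 0.0725. It passed in DESeq2, with no filter, with library totals, with all 9 libraries in 1 fit and without either T cell library.

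**Figure D3:**
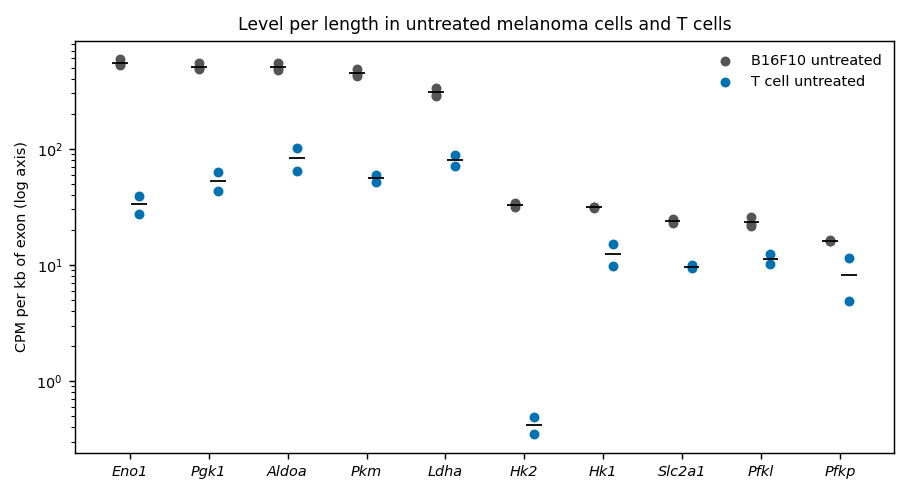
Level per kb of exon (CPM per kb, log axis) of the 10 members in untreated B16F10 (grey, 3 libraries) and untreated T cells (blue, 2 libraries); short lines are means. The 5 genes from Eno1 to Ldha stand between 287 and 588 CPM per kb in B16F10 and the other 5 at or below 34.0, and Hk2 is the one member below 1 CPM per kb in T cells.

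Per kb of exon, the order in untreated B16F10 was Eno1 (550 CPM per kb), Pgk1 (511), Aldoa (509), Pkm (451), Ldha (306), Hk2 (33.0), Hk1 (31.2), Slc2a1 (24.0), Pfkl (23.4) and Pfkp (16.1). Among neighbours in that order, the library ranges overlapped for Eno1 and Pgk1, Pgk1 and Aldoa, Aldoa and Pkm, and Slc2a1 and Pfkl. With HOCl the order began with Aldoa (517 CPM per kb) and Eno1 (477), whose ranges overlapped, and Slc2a1 (26.9) stood above Hk1 (24.7), also with overlap. In untreated T cells it began with Aldoa (83.2 CPM per kb) and Ldha (79.98), followed by Pkm (55.7), Pgk1 (52.7) and Eno1 (33.3). Hk1 (12.4 CPM per kb), Pfkl (11.2), Slc2a1 (9.65) and Pfkp (8.11) came next and Hk2 (0.419) last. Neighbouring ranges overlapped there for Aldoa and Ldha, Pkm and Pgk1, Hk1 and Pfkl, and Slc2a1 and Pfkp. By the union of exons, Eno1 was thus at rank 1 in untreated melanoma cells and rank 5 in T cells. These orders depend on the gene length used and were not taken with the longest transcript. For Eno1 the union has 5379 bases and the longest transcript 2027, against 2244 and 1825 for Pgk1.

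The makeup of the isoenzyme families differed between the cell types in the same libraries. Lactate dehydrogenase per kb was 94.8 and 96.6% Ldha in T cells and 66.3 to 67.0% in B16F10, with Ldhb at 6.17 and 4.95 CPM in T cells and 222 to 269 CPM in B16F10. Enolase was 77.2 and 88.7% Eno1 in T cells, with Eno3, the muscle form, at 22.3 and 10.9%, against 96.3 to 96.5% Eno1 in B16F10. That difference of 13.4 percentage points became 6.18 with the longest transcript as gene length, 7.68 without T cell replicate 1 and 19.2 without T cell replicate 2. Slc2a1 was 48.4 and 61.6% of the Slc2a1 and Slc2a3 sum in T cells and 74.5 to 76.7% in B16F10. Slc2a3 itself was at 71.95 and 45.1 CPM in T cells around 54.7 to 57.3 CPM in B16F10 and did not pass. For all 7 families compared the ranges of the 2 cell types did not overlap, with p = 0.2 each by the exact two-sided permutation test, the smallest that 3 against 2 libraries can give (0.255 adjusted over 14 comparisons).

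**Figure D4:**
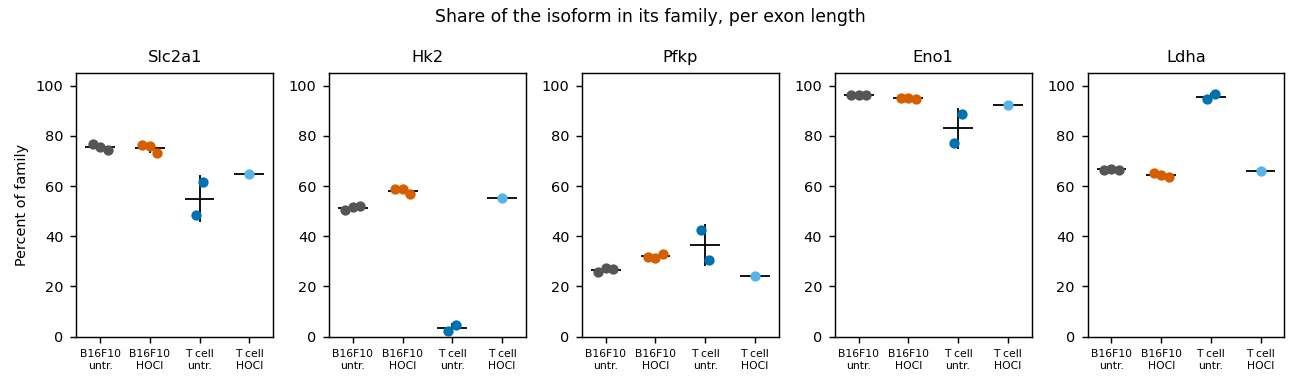
Share of Slc2a1, Hk2, Pfkp, Eno1 and Ldha in the summed level per kb of its family (vertical axis, percent), by library and group (untr., untreated). Points are libraries, bars the mean and SD; Hk2 is 50.5 to 52.0% in untreated B16F10 and 2.19 and 4.74% in untreated T cells.

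Of the other genes of the pathway, 57 were tested between the cell types, of which 29 were higher and 10 lower in B16F10, with a median log2 fold change of 0.97. These counts, and those of the smaller groups below, can be read against all genes tested. Of those, 35.8% were higher and 35.4% lower, with a median of -0.02. Of 13 tested genes of the other steps, 9 were higher and 1 lower. Tpi1, triose phosphate isomerase, stood at 1441 ± 118 CPM in B16F10 (n = 3) and 20.1 ± 0.724 CPM in T cells (n = 2), 60.5-fold apart, and Gapdh at 4131 ± 102 and 225 ± 13.0 CPM, 15.5-fold apart. Pgam1, phosphoglycerate mutase, differed 15.5-fold, Pfkm 8.98-fold, Ldhb 36.6-fold, Eno2 47.5-fold and Aldoc 68.2-fold. Gpi1, glucose phosphate isomerase, had 542 ± 25.6 and 400.1 ± 48.9 CPM and did not pass. Pklr, below 1 CPM in all 5 libraries, was the lower one.

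Of 7 tested transporters 4 were higher and 1 lower in B16F10. Slc2a5, the fructose carrier, stood at 83.5 to 84.5 CPM in B16F10 and 0.401 and 0.0768 CPM in T cells, the latter resting on 20 and 4 counts. The melanoma markers summed to 101 and 25.6 CPM in the same T cell libraries, the higher Slc2a5 value being in the library with more of them. Their part in these values was not tested. Slc2a4, the insulin-responsive GLUT4, had 142 to 149 counts in each untreated B16F10 library and 3 and 0 in T cells, and Slc2a2 had 43 to 74 counts against 6 and 0. Slc2a6 was 27.5-fold higher in B16F10. The lactate exporter Slc16a3 was 5.45-fold and Slc16a1 1.69-fold higher in B16F10; the Slc16a1 call ended without any 1 B16F10 library. Ldhd and the pyruvate carboxylase gene Pcx were 15.7-fold and 15.9-fold higher. Of the exon bases of Ldhd, 42.2% are shared with Znrf1 on the other strand.

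Pdk1 and Txnip were lower in B16F10. Pdk1, a kinase that switches pyruvate dehydrogenase off, stood at 27.7 ± 1.92 CPM in B16F10 (n = 3) and 280 and 162 CPM in T cells, a log2 fold change of -3.23 ± 0.23 at an edgeR adjusted p of 8.18e-05. Txnip stood at 60.7 ± 3.01 CPM in B16F10 (n = 3) and 495 and 307 CPM in T cells, with -2.96 ± 0.20 and an edgeR adjusted p of 7.56e-05. Pfkfb3 was at 30.1 ± 1.46 CPM in B16F10 and 34.5 and 24.1 CPM in T cells, on both sides of it.

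The library labelled T cell HOCl stood between the cell types for most members. Hk2 was at 78.8 CPM there, 31.5 times the mean of the untreated T cells and 40.0% of that of untreated B16F10, and its share of the hexokinases was 55.1%. Eno1 was at 778, Pkm at 621, Aldoa at 427, Pgk1 at 315 and Ldha at 298 CPM, each above both untreated T cell libraries and at 26.3 to 29.5% of untreated B16F10. Slc2a1 (33.0 CPM), Hk1 (88.2), Pfkl (81.3) and Pfkp (79.6) lay within the range of the 2 untreated T cell libraries. Mitochondrial transcripts were 37.4% of the counts of this library, against 1.55 and 2.11% in the untreated T cells. In CPM this lowers all its other genes, so these positions depend on the scaling. Levels without mitochondrial counts were not computed. The melanoma markers of that library summed to 6712 CPM, and their part in these values was not tested.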

How the data were processed

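RNA sequencing of 9 libraries was deposited as raw counts of reads per gene, 1 file per library, from the authors. The submitters' processing notes name mm10, STAR 2.7.1a, featureCounts 1.6.0, FastQC 0.11.8 and DESeq2 1.22.2; not given in the sources used here are annotation release, strand setting and treatment of multi-mapped reads. Reads shared with overlapping genes, antisense partners or retrocopies therefore cannot be told apart: annotated copies of Aldoa, Pgk1, Eno1 and Ldha had at most 1.59% of the gene's counts, and 15.3% of Pkm's exon bases lie in Gm49759. From the authors' deposited table for B16F10 each gene's adjusted p-value and log2 fold change were taken; it does not name its groups by treatment.

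Symbols came from that table, positions and exon lengths from GENCODE M21 (GRCm38). Each comparison was fitted on all genes of its own libraries with edgeR 4.0.16 (R 4.3.3): filterByExpr, TMM scaling, robust quasi-likelihood fit and F test, Benjamini-Hochberg adjustment, threshold 0.05. SE is the log2 fold change over the square root of F. Levels per kb divide CPM by the union of exons. Shares were compared by exact two-sided permutation (scipy 1.17.1). A floor is 3 counts; intervals and floors cover counting or replicate error only. Scripts were tested on simulated data.

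Members and gene lists were chosen with earlier results of these data known. Named genes were the 10 members, 16 fixed pathway genes and, per comparison, the 6 others with the largest change past the threshold, a mean of 50 or more counts in the higher group and ranges that did not overlap. The settings varied were no filter, a filter of 1 CPM, library totals, size factors of DESeq2, its test (DESeq2 1.42.0), glmTreat against 1.5-fold, a fit of all 9 libraries, a block on replicate number, each replicate left out, and the longest transcript as gene length. Promoter windows are RefSeq's (GRCm38.p6), the window free of the gene's exons being preferred, then the one with most GENCODE starts within 50 bases. No 2 libraries of a group agreed within counting noise (chi-square per degree of freedom 3.91 to 447).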

Additional observations from a re-analysis of the deposited data

Results flagged for a closer look

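For Eno1 and Ldha the B16F10 HOCl libraries lay below their controls and the library labelled T cell HOCl lay above both untreated T cell libraries. Eno1 was lower in all 3 HOCl libraries of B16F10 and stood at 778 CPM in the library labelled T cell HOCl against 210.3 and 148 CPM in untreated T cells, a log2 ratio of 2.12 to their mean. Ldha was lower in all 3 HOCl libraries of B16F10 and stood at 298 CPM in that library against 237 and 293 CPM, a log2 ratio of 0.17, next to the nearer control. The difference was not tested. That library is 1 sample and went against its label: its melanoma markers summed to 6712 CPM and its CD8 T cell markers to 517 CPM, and 128 genes with a mean of at least 10 CPM in untreated B16F10 and at most 0.1 CPM in either untreated T cell library stood there at a median of 57.9% of their untreated B16F10 level. These values therefore give no contrast between the cell types.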

How the results depend on the processing

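In B16F10 the counts that moved by over 1.5 times were these. Against a 1.5-fold change (glmTreat) 28 genes were higher and 45 lower, and 0 members and 0 other pathway genes were called; at an unadjusted p below 0.05 that test had 0 members and 1 other pathway gene. With all 9 libraries in 1 fit 11 genes were higher and 26 lower, with 0 members and 0 other pathway genes, although at an unadjusted p below 0.05 it had 3 members lower, 3 other pathway genes higher and 3 lower. With library totals 6 other pathway genes were lower. Leaving out 1 library at a time gave 1410 to 2634 genes lower in all, 0 to 1 members higher (Slc2a1 without untreated replicate 1), 4 to 11 other pathway genes higher and 6 to 11 lower; 4 members stayed lower each time. With the replicate block 1 member was higher (Slc2a1) and 5 lower (Pgk1 added) in B16F10, 2726 genes were higher and 2567 lower, and between the cell types 8 members were higher, Pfkl no longer passing. Deviations of same-numbered B16F10 libraries correlated at 0.144, -0.0487 and 0.0788. HOCl replicate 1 correlated best with its own number, and HOCl replicates 2 and 3 with another number. With 3 libraries per group these values cannot decide whether the numbers pair the libraries.

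Signs turned for genes that had not passed: with library totals, Aldoa to 0.0237, Pgam1 to 0.00311 and Pdk1 to 0.00975 in B16F10 and Pfkfb3 to 0.0370 between cell types. On leaving out 1 library, log2 fold changes ran from -0.00124 to 0.0535 for Hk2, from -0.0481 to 0.0641 for Aldoa, -0.0720 to 0.171 for Aldoc, -0.0510 to 0.00551 for Pgam1, -0.0701 to 0.0316 for Pdk1 and -0.0559 to 0.119 for Txnip in B16F10, and from -0.489 to 0.0288 for Slc2a3, -0.317 to 1.27 for Eno3 and -0.335 to 0.0288 for Pfkfb3 between cell types. With the longest transcript as gene length the share differences became -0.921 points for Eno1 with HOCl, and between cell types 6.18 for Eno1 (13.4 with the union of exons), 34.5 for Hk2, -0.873 for Aldoa, -21.96 for Ldha and 0.19 for Pkm. Leaving out 1 T cell library gave share differences between cell types of 7.68 to 19.2 points for Eno1 and, around -9.82, of -3.81 (without T cell replicate 1) to -15.8 (without replicate 2) for Pfkp. With HOCl the Slc2a1 share difference ran from -0.997 to 0.695 points on leaving out 1 library. The unreplicated T cell HOCl library allows no estimate of spread.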

Other observations

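Among the isoenzymes of the pathway, several were at or near the floor in B16F10 and did not enter its test, among them Slc2a10, Slc2a12, Slc2a13, Hk3, Pgk2, Pklr, Ldhc, Slc16a7, Pdk4, Fbp1, Fbp2, Pck1 and Mlxipl, each at 0.286 CPM or less in every B16F10 library. Several of these stood higher in the T cell HOCl library, where 44225 genes had a count, than in any other library, where at most 25907 did. Slc2a13, a myo-inositol carrier, was at 13.6 CPM there against at most 0.0801 CPM elsewhere, Pdk4 at 11.1 against at most 0.122 CPM, and Mlxipl, which encodes the glucose-sensing factor ChREBP, at 10.04 against at most 0.130 CPM. Pgk2, a testis phosphoglycerate kinase, was at 2.02 CPM there and at 0 in the other 8 libraries, and Pck1 was at 0 in all 9.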
